A study of Homo sapiens with 6 samples.

Results

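The genes described here are 33 genes of cholesterol and fatty acid synthesis, taken by symbol from the 62260 gene rows of an RNA sequencing study. All 33 were found, each as a single row. They comprise 7 genes of the mevalonate pathway, 11 of squalene and sterol synthesis, 8 that control or serve the sterol response and 7 of fatty acid synthesis. The samples were human TYK-nu cells, an ovarian cancer cell line, grown without drug treatment. The tested cells carry a knockout of ZNFX1 (ZNFX1 KO), a gene for a helicase-like zinc finger protein known for a part in antiviral RNA sensing, and the others were wild type (WT) TYK-nu. Each group had 3 libraries of total RNA, given as biological replicates, and all 6 share the label of batch 1. The labels give neither how the knockout was made nor whether the cells are 1 clone, so the effect of losing ZNFX1 and any other difference that sets the KO cells apart from WT cells cannot be told apart. Nothing further says that the replicates came from separate cultures, so the p-values reflect only how much these libraries vary, which may be technical.

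Cells build cholesterol from acetyl-CoA by way of mevalonate, isoprenyl diphosphates, squalene and lanosterol, and fatty acids from acetyl-CoA by way of malonyl-CoA. Many enzymes of both routes are switched on by SREBP transcription factors, which are made as membrane-bound precursors in the endoplasmic reticulum. When sterol is scarce, the escort protein SCAP carries the precursor to the Golgi, where a pair of proteases releases the active factor. When sterol is plentiful, INSIG proteins hold SCAP and the precursor back. SREBP activity is set largely by this cleavage, which RNA levels do not measure.

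The libraries held 21413002 to 23494771 fragments, of which 19115530 to 21036063 were on gene rows. ZNFX1 itself was at 8.79, 7.33 and 6.83 TPM in ZNFX1 KO 1, 2 and 3, against 10.8, 17.5 and 11.8 TPM in WT 1, 2 and 3, lower in every KO library than in any WT library. TPM is a level per transcript length, scaled to the same total in every library. Its log2 fold change, the log2 ratio of ZNFX1 KO over WT, was -0.85 (standard error 0.27, adjusted p = 0.218 in edgeR). It was -0.53 (standard error 0.21, adjusted p = 0.507 in edgeR) without WT 2, and the adjusted p in edgeR was 0.0468 without WT 3. Of 7 epithelial markers, KRT18 was at 70.7 to 88.5 TPM in the KO and 38.9 to 71.1 TPM in WT, and KRT8 at 3.76 to 5.89 TPM in the KO and 4.26 to 11.5 TPM in WT. KRT19 was at 0.0521 to 0.732 TPM in the KO and 0.824 to 1.14 TPM in WT, and EPCAM was listed at 0 in every KO library and at 0.132 to 0.736 TPM in WT. CDH1, PAX8 and MUC16 did not exceed 0.0445 TPM in any library. Of 5 endothelial markers, CDH5 was at 68.9 to 103 TPM in the KO and 67.5 to 103 TPM in WT, TIE1 at 88.4 to 99.1 TPM in the KO and 75.9 to 98.9 TPM in WT, and VWF at 0.799 to 1.55 TPM in the KO and 0.602 to 1.06 TPM in WT, while PECAM1 and KDR lay between VWF and TIE1 in both groups. Of 5 leukocyte markers, LYZ was at 1.43 to 4.49 TPM in the KO and 0.192 to 1.60 TPM in WT, PTPRC was listed at 0 in all 6 libraries, and the others did not exceed 0.0612 TPM. The 6 fibroblast markers summed to at most 0.0978 TPM in the KO and 0.141 TPM in WT. The part of any of these cell types in the results was not tested. WT 2 stood apart from the other libraries in its interferon-stimulated and proliferation genes. Its 19 interferon-stimulated genes summed to 1421 TPM, against 239 to 398 TPM in the KO libraries and 408 and 475 TPM in WT 1 and WT 3. Its 17 proliferation genes summed to 191 TPM, the lowest, against 395 TPM in WT 1 and 853 TPM in WT 3. Values without WT 2 are therefore given beside the main ones where leaving it out moved them by more than 1.5 times, and for those of the 33 genes whose groups were separate. That choice rests on these lists. Over the tested genes the counts of WT 1 and WT 2 differed least of the WT pairs, with a chi-square per degree of freedom of 37.5. The value was 70.4 for WT 1 and WT 3 and 128 for WT 2 and WT 3.

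The summed TPM of the lipid synthesis genes was higher in the KO libraries than in the WT libraries, but no single gene passed the test over all genes. The TPM values of the 33 genes summed to 934, 988 and 846 in ZNFX1 KO 1, 2 and 3, against 729, 408 and 759 in WT 1, 2 and 3. The KO sums lay above every WT sum, and in bulk RNA fewer cells that express a gene cannot be told apart from less RNA per cell. Much of the distance between the sums of ZNFX1 KO 3 and WT 3 was FDPS, at 181 TPM in ZNFX1 KO 3 and 107 TPM in WT 3. The mean sum was 923 ± 71.9 TPM in the KO and 632 ± 195 TPM in WT (SD, n = 3 each), a ratio of 1.46, or 1.24 when WT 2 was left out. Of the 33 genes 32 passed the filter on low counts and 0 of them were called by edgeR's quasi-likelihood test (Benjamini-Hochberg adjusted p under 0.05), where 0.727% of all 14166 tested genes were called (0.268% higher and 0.459% lower in the KO). The smallest adjusted p of the 32 was 0.18. At an unadjusted p under 0.05 there were 9 of 32, all higher, against 5.92% of the tested genes that were higher and 9.19% that were lower by that rule. DESeq2 called 1, FDPS, as higher, where it called 1.67% of the tested genes as higher. The edgeR test without a filter on low counts called 2, ACAT2 and FDPS, as higher, where it called 0.91% of genes as higher.

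Of the 32 tested genes 25 had a positive log2 fold change and 7 a negative one, with a median of 0.35, against 48.8% positive and a median of -0.01 over all tested genes. Without WT 2 the count was 23 of 32 and the median 0.16. In 10 of the 32 genes every KO library lay above every WT library in TPM, where 5% of the tested genes did so, and in 0 every KO library lay below, where 12% did so. The 10 were ACAT2, IDI1, FDPS, SQLE, LSS, MSMO1, HSD17B7, ACLY, FASN and FADS1. Leaving out WT 2 brought no further gene to the 10, where 6.22% of the tested genes had every KO library above both WT 1 and WT 3. The genes were chosen with earlier results of these data known, so these shares describe the list and are not a test of it.

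**Figure D1:**
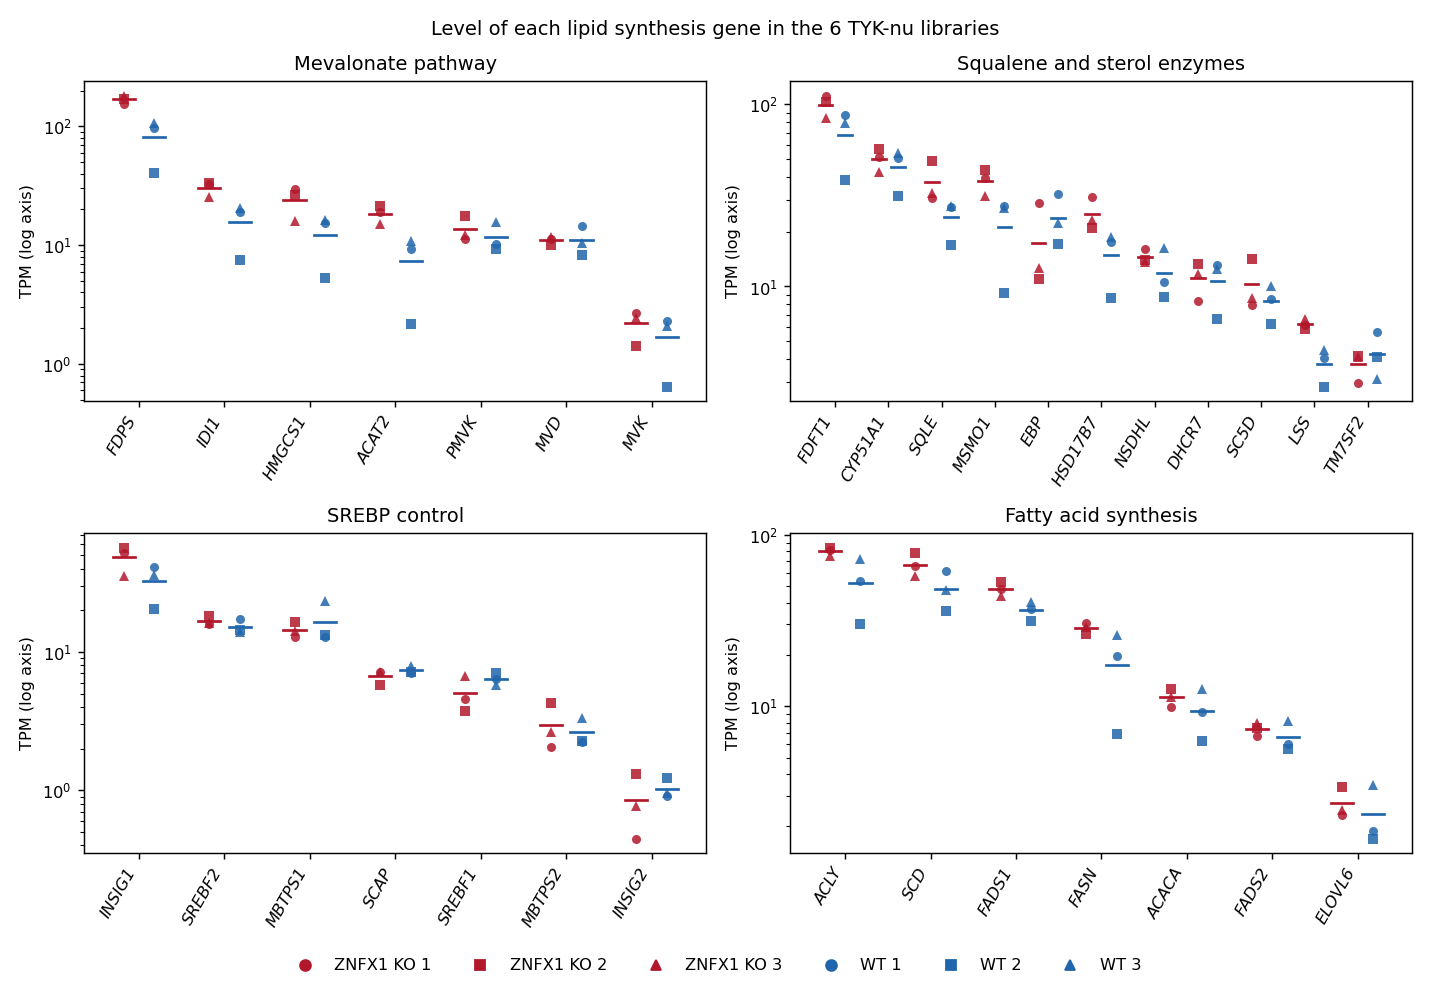
TPM (log axis) of the 32 tested genes in each library, in panels by role, with KO libraries in red to the left of WT libraries in blue, and the horizontal line at the mean of 3. WT 2 (blue square) is the lowest library for 24 of the 32 genes, and in FDPS, IDI1 and ACAT2 all red points lie above all blue ones.

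The 7 mevalonate genes had the largest median log2 fold change of the 4 roles, 0.95, or 0.64 without WT 2. Their TPM summed to 260.0, 281 and 264 in ZNFX1 KO 1, 2 and 3, against 168, 73.8 and 183 in WT 1, 2 and 3. All KO sums were above all WT sums, and WT 2 was the lowest.

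FDPS, which makes farnesyl diphosphate, was the most abundant of the 33 genes (ENSG00000160752.15, chromosome 1, 155308748 to 155320666, plus strand, GRCh38). It was at 154, 171 and 181 TPM in ZNFX1 KO 1, 2 and 3, against 97.7, 40.5 and 107 TPM in WT 1, 2 and 3. All KO values were above all WT values, and WT 2 was below the other WT libraries by more than the whole range of the KO. The mean was 169 ± 14 TPM in the KO and 81.8 ± 36.0 TPM in WT (SD, n = 3 each) and the log2 fold change 1.06 (standard error 0.30, adjusted p = 0.18 in edgeR), which became 0.76 (standard error 0.19, adjusted p = 0.205 in edgeR) without WT 2. DESeq2 gave an adjusted p of 0.0206 for FDPS. Only 62.5% of its reads were in the gene row, and the remainder stood in transcript rows, and joining these gave a log2 fold change of 1.05. FDPS has 8 pseudogenes by name in the files, with mean levels of at most 0.10 TPM, and reads that match both could be split between them.

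ACAT2, the cytosolic acetoacetyl-CoA thiolase that opens the route, had the largest log2 fold change of the 33 genes (ENSG00000120437.9, chromosome 6, 159760328 to 159779055, plus strand). It was at 19.1, 21.2 and 15.0 TPM in ZNFX1 KO 1, 2 and 3, against 9.26, 2.18 and 10.8 TPM in WT 1, 2 and 3, so that the groups did not overlap and WT 2 was at a far lower level than any other library. Its log2 fold change was 1.32 (standard error 0.45, adjusted p = 0.246 in edgeR), and 0.90 (standard error 0.21, adjusted p = 0.154 in edgeR) without WT 2. ACAT2 overlaps the chaperonin gene TCP1 on the opposite strand. The library kit keeps strand, but whether the counting used it is not given in the sources used here. TCP1 was at 70.4 ± 2.83 TPM in the KO and 47.2 ± 29.7 TPM in WT (SD, n = 3 each), and the part of its reads in the ACAT2 value was not tested.

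HMGCS1, the synthase that makes HMG-CoA, was at 29.8, 26.3 and 16.1 TPM in ZNFX1 KO 1, 2 and 3, against 15.3, 5.25 and 16.2 TPM in WT 1, 2 and 3. ZNFX1 KO 3 lay among the WT libraries, so the groups overlapped, and the log2 fold change was 0.98 (standard error 0.39, adjusted p = 0.300 in edgeR), or 0.64 (standard error 0.28) without WT 2. IDI1, which interconverts isopentenyl and dimethylallyl diphosphate, was at 32.4, 33.5 and 25.6 TPM in ZNFX1 KO 1, 2 and 3, against 19.1, 7.57 and 20.4 TPM in WT 1, 2 and 3. Its groups did not overlap, and the log2 fold change was 0.95 (standard error 0.31, adjusted p = 0.234 in edgeR), or 0.65 (standard error 0.21) without WT 2.

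The kinases and the decarboxylase in the middle of the route had smaller log2 fold changes. MVK, the mevalonate kinase, was at 2.71, 1.43 and 2.46 TPM in the KO libraries, against 2.31, 0.646 and 2.08 TPM in the WT libraries, with a log2 fold change of 0.43 (standard error 0.51) and as few as 35 reads in a library. PMVK, the phosphomevalonate kinase, had a log2 fold change of 0.21 (standard error 0.20), or 0.13 (standard error 0.22) without WT 2. MVD, the decarboxylase that forms isopentenyl diphosphate, was at 11.2, 10.1 and 11.6 TPM in the KO libraries, against 14.5, 8.25 and 10.5 TPM in the WT libraries, with a log2 fold change of -0.06 (standard error 0.26), or -0.19 (standard error 0.27) without WT 2, and its sign depended on the processing. The groups overlapped in all 3, and the adjusted p of MVK, PMVK and MVD ranged from 0.616 to 0.935 (edgeR). For MVK the log2 fold change was 0.04 (standard error 0.40) without WT 2. MVK overlaps MMAB on the opposite strand, which had a mean of 4.33 TPM. The part of MMAB reads in the MVK value was not tested.

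**Figure D2:**
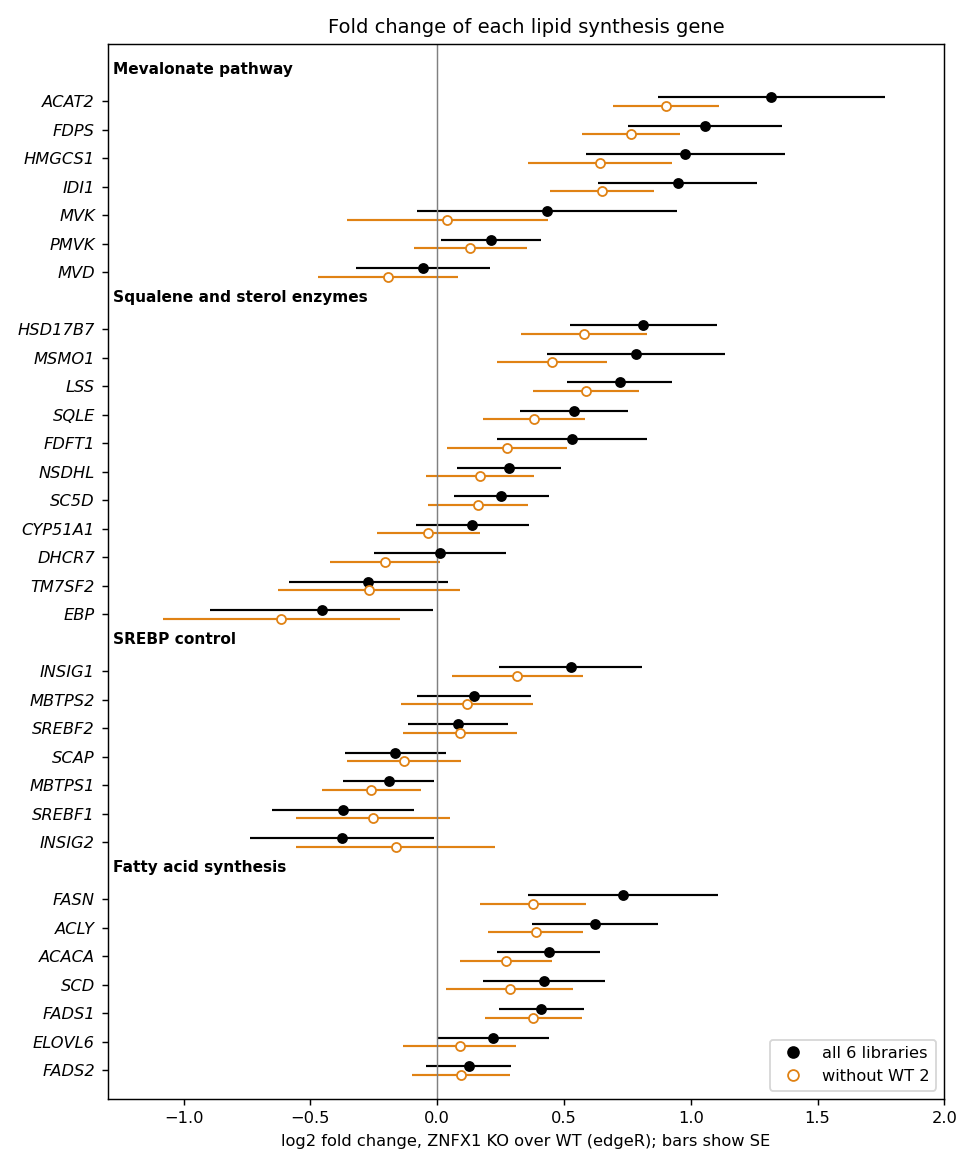
Log2 fold change of ZNFX1 KO over WT for the 32 tested genes, by role, from edgeR, with SE as bars, for all 6 libraries (filled) and without WT 2 (open). ACAT2, FDPS, HMGCS1 and IDI1 lie furthest to the right, and 24 of the 25 positive values are smaller when WT 2 is left out.

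Among the 11 genes of squalene and sterol synthesis 9 had a positive log2 fold change, with a median of 0.28, or 0.17 and 7 positive without WT 2. Their TPM summed to 334, 336 and 271 in ZNFX1 KO 1, 2 and 3, against 285, 150.0 and 274 in WT 1, 2 and 3, so that ZNFX1 KO 3 lay below WT 1 and WT 3 and the sums overlapped. The groups were separate, with the KO higher, in 4 of the 11 genes, against 5% of all tested genes. They were separate with the KO lower in 0 of the 11, against 12% of all tested genes. SQLE, the epoxidase that commits squalene to sterols, was at 30.8, 49.1 and 32.7 TPM in ZNFX1 KO 1, 2 and 3, against 27.3, 16.8 and 27.7 TPM in WT 1, 2 and 3. LSS, which closes the epoxide to lanosterol, was at 6.14, 5.86 and 6.66 TPM in ZNFX1 KO 1, 2 and 3, against 4.04, 2.82 and 4.46 TPM in WT 1, 2 and 3. In both genes all KO values were above the highest WT value, and the mean of LSS was 6.22 ± 0.405 TPM in the KO and 3.77 ± 0.851 TPM in WT (SD, n = 3 each). The log2 fold change was 0.54 (standard error 0.21, adjusted p = 0.294 in edgeR) for SQLE and 0.72 (standard error 0.21, adjusted p = 0.18 in edgeR) for LSS. Without WT 2 the log2 fold change was 0.38 (standard error 0.20) for SQLE and 0.59 (standard error 0.21) for LSS.

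MSMO1, a sterol oxidase that takes part in removing methyl groups from lanosterol derivatives, was at 39.6, 43.4 and 31.3 TPM in ZNFX1 KO 1, 2 and 3, against 27.8, 9.17 and 27.1 TPM in WT 1, 2 and 3. HSD17B7, the ketoreductase of the same step series, was at 30.9, 21 and 23.3 TPM in ZNFX1 KO 1, 2 and 3, against 17.5, 8.6 and 18.6 TPM in WT 1, 2 and 3. In both genes WT 2 was lowest and the KO libraries lay above WT 1 and WT 3 with less distance than to WT 2. The log2 fold changes were 0.78 (standard error 0.35, adjusted p = 0.339 in edgeR) for MSMO1 and 0.81 (standard error 0.29, adjusted p = 0.262 in edgeR) for HSD17B7, and 0.45 (standard error 0.22) and 0.58 (standard error 0.25) without WT 2. HSD17B7 has pseudogene copies by name, the highest with a mean of 0.325 TPM, and reads could be split between them.

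FDFT1, which joins farnesyl diphosphates to squalene and was the next most abundant gene after FDPS, was at 112, 103 and 83.9 TPM in ZNFX1 KO 1, 2 and 3, against 87.2, 38.5 and 78.6 TPM in WT 1, 2 and 3. ZNFX1 KO 3 lay below WT 1, so the groups overlapped, and the log2 fold change was 0.53 (standard error 0.30, adjusted p = 0.420 in edgeR), or 0.27 (standard error 0.24) without WT 2. CYP51A1, the lanosterol demethylase, was at 51.2, 56.8 and 42.4 TPM in the KO libraries, against 50.7, 31.4 and 53.8 TPM in the WT libraries. Its log2 fold change was 0.14 (standard error 0.22), and -0.04 (standard error 0.20) without WT 2. NSDHL, a dehydrogenase of the demethylation complex, had a log2 fold change of 0.28 (standard error 0.21), or 0.17 (standard error 0.21) without WT 2, and SC5D, a sterol desaturase, one of 0.25 (standard error 0.19), or 0.16 (standard error 0.20) without WT 2, with overlapping groups in both.

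EBP, DHCR7 and TM7SF2 had log2 fold changes near or below 0. EBP, the isomerase that shifts the sterol double bond, was at 28.6, 11 and 12.7 TPM in ZNFX1 KO 1, 2 and 3, against 32.3, 17.1 and 22.2 TPM in WT 1, 2 and 3. ZNFX1 KO 1 was near the highest WT value, and ZNFX1 KO 2 and 3 were below every WT value. The log2 fold change of EBP was -0.46 (standard error 0.44, adjusted p = 0.627 in edgeR), the lowest of the 32 genes. DHCR7, the reductase of the final step to cholesterol, was at 8.30, 13.4 and 11.7 TPM in the KO libraries, against 13.1, 6.61 and 12.4 TPM in the WT libraries, with a log2 fold change of 0.01 (standard error 0.26), or -0.21 (standard error 0.22) without WT 2. TM7SF2, a sterol reductase, had a log2 fold change of -0.27 (standard error 0.31) with 67.1% of its reads in the gene row. TM7SF2 overlaps VPS51 on the same strand, which had a mean of 12.1 TPM. The part of VPS51 reads in the TM7SF2 value was not tested.

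**Figure D3:**
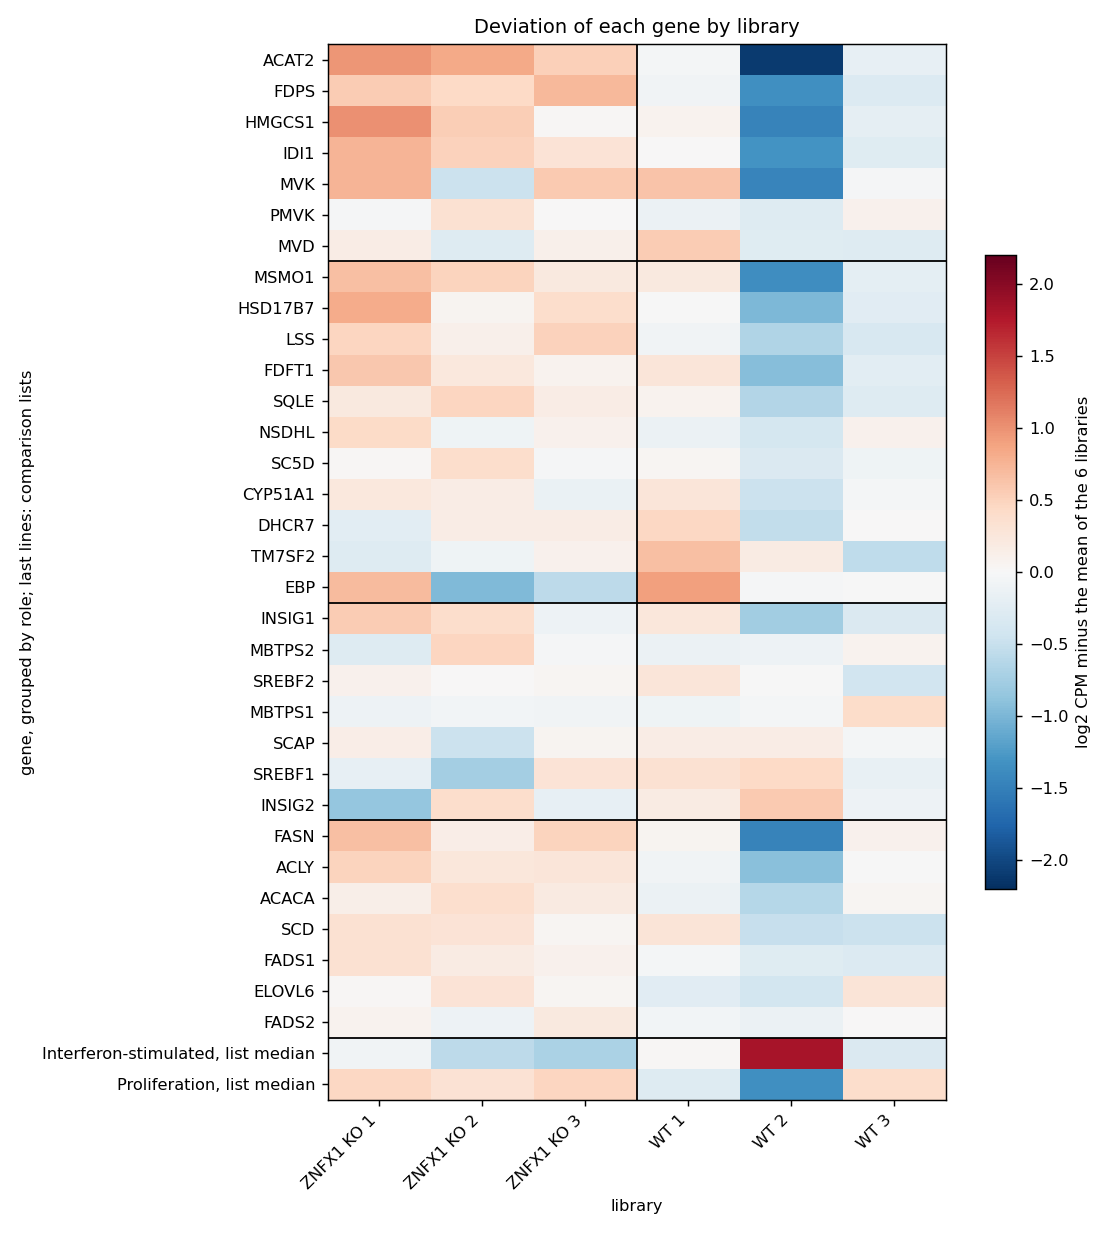
Deviation of each tested gene's log2 CPM (counts scaled to library size) from its mean over the 6 libraries, as colour, with KO libraries left of WT libraries, genes in blocks by role, and the medians of the interferon-stimulated and proliferation lists in the last lines. WT 2 is the darkest blue column among the mevalonate genes, in which its median is -1.35, and the SREBP control block is pale in all 6 columns apart from single cells.

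The genes that control the sterol response had log2 fold changes of both signs. Of the 7 tested, 3 had a positive and 4 a negative log2 fold change, and the median was -0.16. In 0 of the 7 were the groups separate, against 5% of all tested genes with the KO higher and 12% with the KO lower. A count over so few genes cannot show a difference from these shares. The TPM of the role summed to 95.2, 106 and 83.2 in ZNFX1 KO 1, 2 and 3, against 87.7, 65.9 and 91.5 in WT 1, 2 and 3, which also overlapped. SREBF2, the factor that mainly drives cholesterol genes, was at 15.8, 18.1 and 16.2 TPM in ZNFX1 KO 1, 2 and 3, against 17.3, 14.4 and 14 TPM in WT 1, 2 and 3. SREBF1, the factor tied more to fatty acid genes, was at 4.57, 3.78 and 6.71 TPM in ZNFX1 KO 1, 2 and 3, against 6.33, 7.02 and 5.81 TPM in WT 1, 2 and 3. SREBF1 was highest in WT 2, where most enzymes were lowest, and neither gene separated the groups. The log2 fold change was 0.08 (standard error 0.20, adjusted p = 0.865 in edgeR) for SREBF2 and -0.37 (standard error 0.28, adjusted p = 0.543 in edgeR) for SREBF1. Per transcript length SREBF2 exceeded SREBF1 in all 6 libraries, by a TPM ratio of 2.42 to 4.80 in the KO and 2.05 to 2.74 in WT.

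INSIG1, itself a known SREBP target that restrains the pathway, was at 52.2, 56.7 and 35.6 TPM in ZNFX1 KO 1, 2 and 3, against 40.9, 20.5 and 36.2 TPM in WT 1, 2 and 3. It was lowest in WT 2, like the enzymes, but ZNFX1 KO 3 lay below WT 1 and WT 3, and the log2 fold change was 0.53 (standard error 0.28, adjusted p = 0.406 in edgeR), or 0.32 (standard error 0.26) without WT 2. INSIG2, its paralog, was at 0.449, 1.32 and 0.766 TPM in the KO libraries, against 0.911, 1.22 and 0.960 TPM in the WT libraries, with a log2 fold change of -0.37 (standard error 0.36), or -0.16 (standard error 0.39) without WT 2 and -0.15 with transcript rows joined. For INSIG2, 59.5% of the reads were in the gene row. The TPM ratio of INSIG1 over INSIG2 was 42.9 to 116 in the KO libraries and 16.7 to 44.9 in the WT libraries, which overlapped.

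The escort protein SCAP was at 7.13, 5.79 and 7.22 TPM in the KO libraries, against 7.08, 7.14 and 7.98 TPM in the WT libraries, and the log2 fold change was -0.16 (standard error 0.20). The proteases that cleave the precursor, MBTPS1 and MBTPS2, had log2 fold changes of -0.19 (standard error 0.18) and 0.15 (standard error 0.22). For SCAP, MBTPS1 and MBTPS2 the adjusted p lay between 0.618 and 0.778 (edgeR). A p of this size does not show that their levels were equal. STARD4, a sterol transport protein, was listed at 0 in the gene row and in the transcript rows of all 6 libraries. A count of 0 allows up to 3 fragments per library, or 0.143 to 0.157 CPM for counting error alone, and STARD4 was the 1 gene of the 33 that was not tested.

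All 7 fatty acid genes had a positive log2 fold change, with a median of 0.42, or 0.29 without WT 2, when all 7 were still positive. Their TPM summed to 246 ± 18.9 TPM in the KO and 172 ± 48.1 TPM in WT (SD, n = 3 each), and the KO libraries lay between 227 and 265 TPM, above all WT libraries at 118 to 211 TPM.

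ACLY, which makes cytosolic acetyl-CoA from citrate, was at 81.2, 84.1 and 75.2 TPM in ZNFX1 KO 1, 2 and 3, against 53.5, 30.3 and 72.4 TPM in WT 1, 2 and 3 (ENSG00000131473.17, chromosome 17, 41866908 to 41930542, minus strand). The KO values lay close together and the highest WT value, that of WT 3, was just under them. Its log2 fold change was 0.62 (standard error 0.25, adjusted p = 0.300 in edgeR), or 0.39 (standard error 0.19) without WT 2. FASN, the fatty acid synthase, was at 30.5, 26.2 and 28.9 TPM in ZNFX1 KO 1, 2 and 3, against 19.7, 6.88 and 25.9 TPM in WT 1, 2 and 3. WT 3 and ZNFX1 KO 2 differed little, WT 2 was far below all others, and the log2 fold change was 0.73 (standard error 0.37, adjusted p = 0.389 in edgeR) with all libraries and 0.38 (standard error 0.21) without WT 2.

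FADS1, a desaturase of polyunsaturated fatty acids, was at 48.5, 52.8 and 44.0 TPM in ZNFX1 KO 1, 2 and 3, against 36.6, 31.5 and 40.6 TPM in WT 1, 2 and 3. All KO values were above all WT values, and the log2 fold change was 0.41 (standard error 0.17, adjusted p = 0.307 in edgeR) for all libraries and 0.38 (standard error 0.19) without WT 2. Its neighbour FADS2, which overlaps it on the opposite strand, was at a lower level, 6.68, 7.46 and 7.93 TPM in the KO libraries, against 6.01, 5.59 and 8.14 TPM in the WT libraries, and its log2 fold change was 0.12 (standard error 0.17). The TPM ratio of FADS1 over FADS2 was 5.55 to 7.26 in the KO and 5.00 to 6.10 in WT. FADS2 also overlaps FEN1 on the same strand, which had a mean of 19.1 TPM. The part of FEN1 reads in the FADS2 value was not tested.

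SCD, which makes monounsaturated fatty acids, was at 65.7, 78.2 and 57.2 TPM in ZNFX1 KO 1, 2 and 3, against 61.4, 36.1 and 47.5 TPM in WT 1, 2 and 3. ZNFX1 KO 3 lay below WT 1, and the log2 fold change was 0.42 (standard error 0.24, adjusted p = 0.430 in edgeR). ACACA, the carboxylase that makes malonyl-CoA, had a log2 fold change of 0.44 (standard error 0.20), or 0.27 (standard error 0.18) without WT 2, and ELOVL6, an elongase of long-chain fatty acids, one of 0.22 (standard error 0.22), or 0.09 (standard error 0.22) without WT 2. In TPM the highest library of ACACA and of ELOVL6 was WT 3, so the groups overlapped. For ACACA this rested on 12.584 TPM in WT 3 against 12.581 TPM in ZNFX1 KO 2. In deviation from the 6-library mean (log2 CPM), ACACA stood at 0.125, 0.38 and 0.19 in ZNFX1 KO 1, 2 and 3. It stood at -0.12, -0.62 and 0.05 in WT 1, 2 and 3, so on that scale its groups were separate. ELOVL6 on that scale was highest in ZNFX1 KO 2, at 0.294 against 0.281 in WT 3, and its groups still overlapped.

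**Figure D4:**
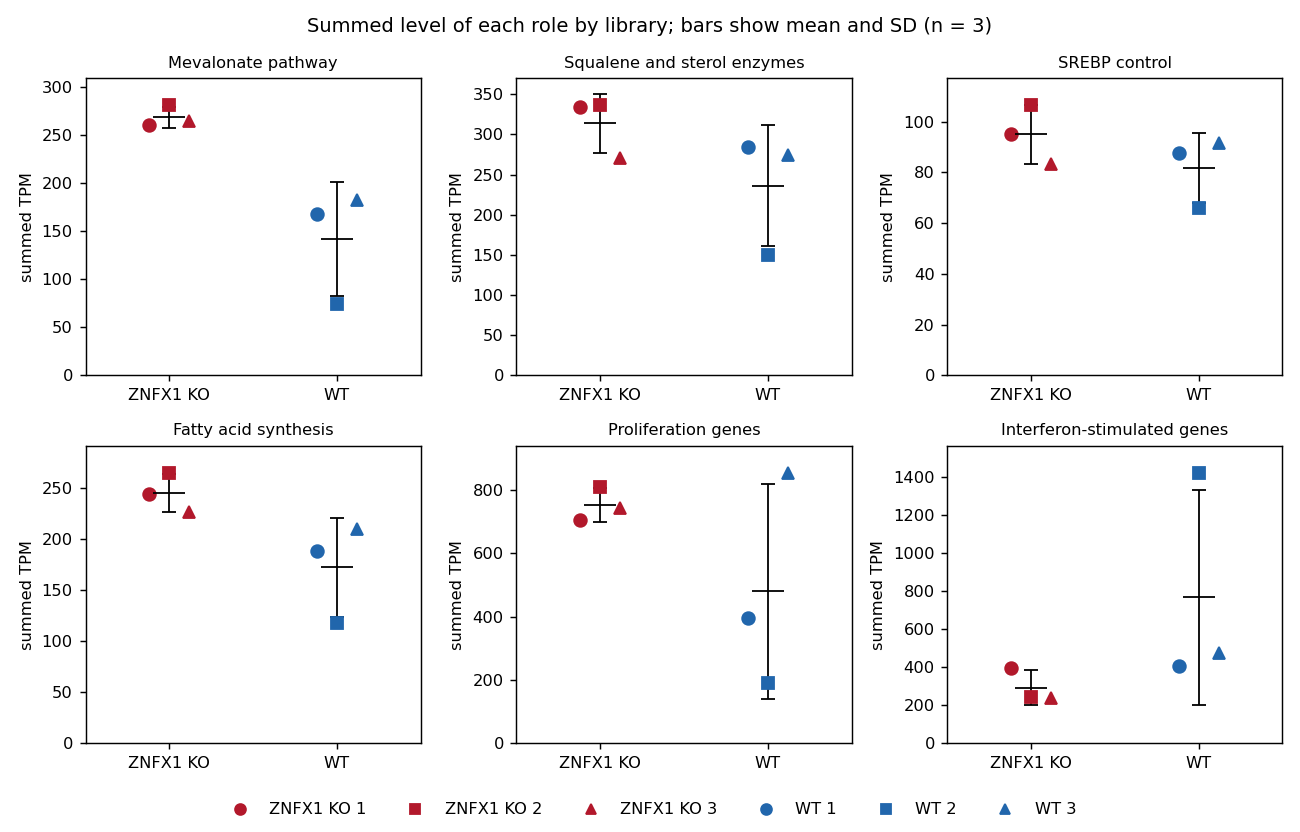
Summed TPM in each library for the 4 roles and for the proliferation and interferon-stimulated lists, with KO left of WT, points for libraries, and bars for mean and SD of 3. In the mevalonate and fatty acid panels all KO points lie above all WT points, whereas in the proliferation panel WT 3 has the highest point of all 6.

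The lipid genes shared the low position of WT 2 with the proliferation genes. WT 2 was the lowest library for 24 of the 32 lipid genes, including all 7 mevalonate and all 7 fatty acid genes, and for 17 of 17 proliferation genes, against 31.1% of all tested genes. WT 2 was the highest library in TPM for 15 of the 16 tested interferon-stimulated genes, against 2716 of all 14166 tested genes. In the median deviation from the 6-library mean (log2 CPM), the lipid genes stood at 0.29, 0.21 and 0.09 in ZNFX1 KO 1, 2 and 3, against 0.07, -0.49 and -0.14 in WT 1, 2 and 3. The proliferation genes stood at 0.45, 0.32 and 0.47 in the KO, against -0.28, -1.36 and 0.39 in WT. The 2 lists thus parted in WT 3, where the proliferation genes summed to 853 TPM, above the 706 to 809.5 TPM of the KO, while the lipid genes summed to 759 TPM, below every KO library. The groups were separate, with the KO higher, in 1 of 17 proliferation genes, against the 5% of all tested genes. MCM7, a helicase subunit of DNA replication, had a log2 fold change of 0.69 (standard error 0.44, adjusted p = 0.475 in edgeR), or 0.31 (standard error 0.28) without WT 2, and PCNA, the replication clamp, one of 1.12 (standard error 0.56, adjusted p = 0.379 in edgeR), or 0.70 (standard error 0.40) without WT 2. The ubiquitin-like modifier ISG15 and IFI6, both interferon-induced, were at -1.86 (standard error 0.63, adjusted p = 0.244 in edgeR) and -2.11 (standard error 0.63, adjusted p = 0.193 in edgeR) on the same scale, or -0.71 (standard error 0.35) and -1.01 (standard error 0.36) without WT 2. The part of growth state or of the interferon response in the levels of the lipid genes was not tested.

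Promoter sequences are shown because many of these genes are known SREBP targets. RefSeq promoters (GRCh38.p14) of 29 of the 33 genes were searched, in 39 windows, and the 250 bases before each start were searched on both strands. A CCAAT box (CCAAT), the site bound by NF-Y, which is known to work with SREBP, was found in 23 of 39 windows, or 59.0%, against 32.0% of 34943 windows of all genes. A sterol regulatory element written as TCACNCCAC was found in 1 of 39 windows, that of SREBF2, against 0.881% of all windows. Only these letters, with N for any base, were searched, so an element spelled otherwise was not counted. The motifs do not overlap each other in the windows shown, and a match is a description of letters and not a binding site. The windows of FDPS (chr1:155308616-155308865, plus strand) and MSMO1 (chr4:165327419-165327668, plus strand), genes with separate groups, held 3 and 4 CCAAT boxes. They are shown with those of SREBF2 (chr22:41832855-41833104, plus strand), with 1 CCAAT box, and MBTPS1 (chr16:84116943-84117192, minus strand), with 0, both genes with overlapping groups. Capitals mark the motif letters on either strand, and each is written 5′ to 3′ towards the start of the gene.
FDPS: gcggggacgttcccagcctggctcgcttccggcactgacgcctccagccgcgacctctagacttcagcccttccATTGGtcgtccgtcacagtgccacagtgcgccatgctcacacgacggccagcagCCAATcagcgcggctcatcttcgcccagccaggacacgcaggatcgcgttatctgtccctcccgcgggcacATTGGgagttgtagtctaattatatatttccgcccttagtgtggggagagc
MSMO1: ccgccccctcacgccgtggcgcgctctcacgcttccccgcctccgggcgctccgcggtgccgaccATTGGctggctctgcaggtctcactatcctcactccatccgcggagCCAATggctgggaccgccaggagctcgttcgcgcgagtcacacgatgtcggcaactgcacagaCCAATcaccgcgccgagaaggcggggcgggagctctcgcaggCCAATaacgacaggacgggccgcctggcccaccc
SREBF2: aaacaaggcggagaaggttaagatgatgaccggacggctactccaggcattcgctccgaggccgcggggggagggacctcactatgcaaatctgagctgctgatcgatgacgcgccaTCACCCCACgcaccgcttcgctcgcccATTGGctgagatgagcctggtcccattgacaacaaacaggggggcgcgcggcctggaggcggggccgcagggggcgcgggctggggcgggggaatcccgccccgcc
MBTPS1: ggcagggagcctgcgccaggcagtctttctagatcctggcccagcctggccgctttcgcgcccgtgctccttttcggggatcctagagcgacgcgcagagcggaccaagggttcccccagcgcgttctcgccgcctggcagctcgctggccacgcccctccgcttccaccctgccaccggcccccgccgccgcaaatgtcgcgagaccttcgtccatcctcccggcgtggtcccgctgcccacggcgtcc

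The FDPS and MSMO1 windows hold the CCAAT letters in both orientations, and the SREBF2 window holds the sterol element upstream of its CCAAT box. Of the 10 genes with separate groups 7 had a window and 6 of the 7 held a CCAAT box (FDPS, IDI1, HSD17B7, LSS, MSMO1 and ACLY, but not FADS1). Of the genes with overlapping groups 22 had a window and 13 held the box, both counts including the untested STARD4, listed at 0 in every library, and EBP, DHCR7 and TM7SF2 were among the 13. SQLE, FASN and ACAT2, also with separate groups, had no window. These shares count genes with the box in any window, whereas the 32.0% over all genes counts windows. The difference between the shares was not tested.

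Related genes outside the 33 were divided between both directions. Of 50 genes for the isoprenoid branches, sterol handling, control at the endoplasmic reticulum and other steps of fatty acid metabolism, 46 were tested and 0 were called by edgeR, with 2 higher and 4 lower at an unadjusted p under 0.05, against the 5.92% and 9.19% of all tested genes. Of the 46, 24 had a positive and 22 a negative log2 fold change, and the median was 0.10, or 0.02 without WT 2. The groups were separate in 4 genes with the KO higher and in 6 with the KO lower, against the 5% and 12% of all tested genes. GGPS1, which makes geranylgeranyl diphosphate from the product of FDPS, was at 19.3, 21.1 and 18.4 TPM in ZNFX1 KO 1, 2 and 3, against 15.1, 11.8 and 13.3 TPM in WT 1, 2 and 3. Its groups were separate and its log2 fold change was 0.44 (standard error 0.18, adjusted p = 0.314 in edgeR). FNTA, a subunit of the protein farnesyl and geranylgeranyl transferases, had a log2 fold change of -0.01 (standard error 0.16), or 0.06 (standard error 0.18) without WT 2. With transcript rows joined it was -0.25, and 77.1% of its reads were in the gene row.

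In the sterol handling list the most abundant genes were LIPA, the lysosomal acid lipase, and NPC2, a lysosomal sterol carrier, with log2 fold changes of 0.25 (standard error 0.21) and -0.25 (standard error 0.32), or 0.13 (standard error 0.22) and -0.11 (standard error 0.35) without WT 2. ERLIN1, a membrane scaffold of the endoplasmic reticulum, had a log2 fold change of 0.38 (standard error 0.21), or 0.23 (standard error 0.20) without WT 2. Of the other fatty acid genes, the elongase ELOVL5 had one of 0.46 (standard error 0.20) and the acyl-CoA ligase ACSL3 one of -0.22 (standard error 0.17). In that list 7 of 18 tested genes were positive, against 7 of 7 of the fatty acid genes among the 33.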

How the data were processed

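RNA was sequenced from 3 ZNFX1 KO and 3 WT TYK-nu libraries with a kit that keeps strand, per the labels' protocols. The submitters' processing notes name FastQC, Trimmomatic, Salmon and DESeq2. The build, the annotation and the strand setting behind the counts are not given there or in the labels. Per the labels, the deposited Salmon tables give estimated counts, which need not be whole, and TPM, normalized by the authors for transcript length and library size. Each table has 62260 gene rows and 134909 transcript rows, and the transcript rows hold 9.93% to 10.7% of fragments. Only gene rows were tested. Gene coordinates are from GENCODE release 29 (GRCh38), matched by ID to 57833 gene rows.

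Estimated counts were rounded and fitted with edgeR 4.0.16 (TMM, filterByExpr, quasi-likelihood test, KO against WT, no covariate) in R 4.3.3 over 14166 genes, with Benjamini-Hochberg adjustment over all of them. The step was tested on simulated data. Alternatives used DESeq2 1.42.0 and limma 3.58.1. TPM served for levels, sums and the separation of groups, CPM on a log2 scale for deviations. Groups count as separate where every library of one lies above every library of the other. The exact permutation test of 3 against 3 cannot go below p = 0.1 and was not used. All 33 genes are named, with the targeted gene, and from each wider list without a called gene the 2 with the highest mean TPM. 1 gene under that rule is not reported here. The genes and lists were chosen with earlier results of these data known. Limits from counts cover counting error only.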

Additional observations from a re-analysis of the deposited data

How the results depend on the processing

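The median log2 fold change of the 32 tested lipid genes was 0.35 and stayed positive under all 19 alternatives, between 0.16 (without WT 2) and 0.41. The log2 ratio of their summed TPM was 0.55, between 0.31 and 0.70 when 1 library was left out and 0.48 with CPM. Of the 32 genes 0 were called, also when any 1 library was left out, against 2 without a filter on low counts and 1 with DESeq2. The count of all genes called, 103, was 602 without a filter, 579 with DESeq2, 22 with limma on log2(TPM + 1), 187 with transcript rows joined, and 2 (without ZNFX1 KO 2) to 1315 (without WT 3) when 1 library was left out. With the replicate number as a block it was 14, and the median of the lipid genes was 0.35. Libraries with the same number had correlations of 0.13, -0.04 and 0.01 in their deviations from the group means. Libraries with unlike numbers had correlations between -0.096 and 0.093. With 3 libraries per group these values cannot settle whether the numbers pair the samples.

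Genes near 0 changed sign. MVD was at 0.015 with limma on log2(TPM + 1), 0.019 with log2(TPM + 0.1) and 0.0043 with transcript rows joined, and DHCR7 at -0.048 with library totals. FNTA was at 0.0024 with DESeq2 size factors, 0.022 without a filter, 0.0025 with DESeq2, 0.024 with limma on log2(TPM + 1) and 0.025 with log2(TPM + 0.1), and at -0.25 with transcript rows joined. With 1 library left out the ranges were -0.19 to 0.28 for MVD, -0.035 to 0.33 for CYP51A1, -0.52 to 0.057 for TM7SF2, -0.21 to 0.29 for DHCR7, -0.062 to 0.26 for SREBF2, -0.28 to 0.016 for SCAP, -0.27 to 3.4e-05 for MBTPS1, -0.078 to 0.30 for MBTPS2 and -0.076 to 0.070 for FNTA. The cause was not tested. In 24 of the 32 genes the sign held under every alternative run. MVK, with as few as 35 reads in a library, and INSIG2 were the least deeply counted.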
